A study of Mus musculus with 14 samples.

Results

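Heat shock proteins and their cochaperones were followed through 12 messenger RNA libraries of mouse gastric tumours. The set held 10 genes, given by symbol and chosen with earlier results of these data known. Among them were the inducible HSP70 pair Hspa1a and Hspa1b, the constitutive HSP70 Hspa8, the HSP110 gene Hsph1 and the J-domain cochaperone Dnajb1. The others were the HSP90 gene Hsp90aa1, the small heat shock protein Hspb1, the mitochondrial chaperonin pair Hspd1 and Hspe1, and the transcription factor Hsf1. All 10 were among the 24421 genes of the count tables, and all 10 passed the filter on low counts in every comparison. Hsf1 is a regulator of the others and not itself a chaperone.

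Mice had received tumour transplants under the skin (subcutaneous) or at the orthotopic site, and tissue was taken 2 months later. There were 3 libraries for each of 4 groups: TM, TMP and TMPC tumours under the skin, and TMPC tumours at the orthotopic site. TM, TMP and TMPC are the labels' own names for the tumour lines and are not spelled out there, so alleles, age and host strain are not stated here. The comparisons ask how the genes differed between lines at one site and between sites for one line. Nothing in the labels ties replicates to different mice. The p-values therefore reflect only how these libraries spread, and that spread could be technical.

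Total counts ranged from 16584781 to 21107310 per library. The 10 genes had between 246 and 77431 counts each in a library, so counting error was small beside the spread between replicates. Replicate 2 of subcutaneous TM stood apart before any heat shock gene was considered. Its gastric epithelium markers (Epcam, keratins and gastric secretory genes) summed to 180.5 CPM (read counts relative to library size, with TMM factors over the 12 libraries), against 3006 and 3360 in the other TM libraries. Its adipocyte and B cell markers summed to 3581 and 2674 CPM, against 17.7 and 18.8, and 13.3 and 14.2, in the other TM libraries. Orthotopic replicate 3 carried liver markers at 5058 CPM, against 41.1 and 47.2 in the others of its group. Of the markers that define gastric epithelium, Cldn18 stood between 102 and 454 CPM in the orthotopic libraries. In the subcutaneous libraries Cldn18, Gkn1 and Pgc stood between 0 and 1.47 CPM, while the general epithelial marker Epcam stood between 51.4 and 672 CPM. In bulk tissue, fewer cells of a type and less RNA per cell cannot be told apart.

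Heat shock proteins bind unfolded or partly folded proteins and either hold them soluble or help them fold. HSP70 proteins work in cycles of ATP use that J-domain proteins such as DNAJB1 start and exchange factors such as HSPH1 reset, and they hand some clients on to HSP90. HSPD1 and HSPE1 form the barrel and the lid of the folding chamber inside mitochondria. When proteins unfold, the factor HSF1 forms trimers and binds heat shock elements, which are arrays of the unit GAA in alternating orientation, and so induces many of these genes. In growing tissue several of them are also transcribed without stress, and tumours often hold high levels of HSP90, HSP70 and mitochondrial chaperonin.

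The promoter letters are shown because heat shock elements are what ties most of the 10 genes to one regulator. RefSeq promoter windows on GRCm38.p6, from 250 bases before to 50 after a transcription start, were at hand for 7 of the 10 genes, in 10 windows. Both strands were searched for a pair of units in either arrangement, GAANNTTC or TTCNNGAA. At least 1 pair was found for 6 of the 7 genes, against 15.1% of all 32851 windows of this length. The first count is by gene, some with more than 1 window, and the share is by single window. For Dnajb1 neither arrangement was in the windows. The run of 3 units GAANNTTCNNGAA, which contains both pairs, was found for 3 genes, Hsph1, Hspd1 and Hspe1, against 0.603% of all windows. Hspd1 and Hspe1 share the same stretch, and the Hspa1a and Hspa1b windows are nearly the same, so these are not separate finds. The 150 bases before the start are given here 5′ to 3′ on the strand of the gene, with the pairs in capitals.
Hspa1a: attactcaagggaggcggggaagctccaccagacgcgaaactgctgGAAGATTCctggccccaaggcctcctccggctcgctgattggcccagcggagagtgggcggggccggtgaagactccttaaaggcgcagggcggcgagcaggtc
Hspa1b: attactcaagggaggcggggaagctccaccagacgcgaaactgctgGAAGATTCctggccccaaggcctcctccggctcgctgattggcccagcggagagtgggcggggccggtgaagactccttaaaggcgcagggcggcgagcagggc
Hspb1: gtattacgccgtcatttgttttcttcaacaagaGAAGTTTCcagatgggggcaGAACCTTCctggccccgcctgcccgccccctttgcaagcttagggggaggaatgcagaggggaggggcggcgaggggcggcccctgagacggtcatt
Hspe1: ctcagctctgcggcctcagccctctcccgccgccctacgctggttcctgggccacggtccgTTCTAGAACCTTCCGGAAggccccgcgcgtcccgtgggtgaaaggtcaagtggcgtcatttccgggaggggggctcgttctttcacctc
Hsph1: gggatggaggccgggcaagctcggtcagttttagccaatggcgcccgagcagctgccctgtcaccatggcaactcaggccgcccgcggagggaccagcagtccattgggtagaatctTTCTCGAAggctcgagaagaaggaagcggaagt
These stretches lie at chr17:34972157-34972306 and chr17:34959239-34959388 on the minus strand, at chr5:135887769-135887918 and chr1:55087998-55088147 on the plus strand, and at chr5:149636337-149636486 on the minus strand.

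The Hspa1a and Hspa1b windows differed at 4 of 300 positions, and at 1 of the 150 printed ones, so the pair shares nearly all its proximal control letters. The stretch in capitals of Hspe1, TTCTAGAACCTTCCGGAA, holds 4 alternating units. Hspe1 and Hspd1 lie head to head, and the second Hspd1 window (chr1:55087883-55088182, minus strand) shares 285 bases with that of Hspe1. The stretch thus lies before the Hspe1 start and before the second Hspd1 start, but inside Hspd1 as annotated from its first start, whose own window (chr1:55088194-55088493) held 0 pairs. For Hsph1 the run of 3 units, TTCTGGAAAGTTC, lies 36 bases after the first transcribed base (chr5:149636288-149636300, minus strand). A match of letters is a description and was not measured as binding here.

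Levels per length set the genes in order, with exon lengths from the GENCODE M21 annotation of mm10. All annotated exons of a gene are counted, so genes with many rare exons come out low. For Hsph1 they add to 7266 bp, against 3802 in the transcript with the longest reading frame. For Hsf1 they add to 7099 bp, against 2102, so the ranks of both may depend on the length used. By group mean Hspa8 led in all 4 groups, from 373 ± 76.7 CPM per kb (SD, n = 3) in subcutaneous TM to 814 ± 209 in subcutaneous TMPC. In orthotopic TMPC its libraries overlapped those of Hsp90aa1. Hsf1 had the lowest group mean in all 4 groups, between 5.08 ± 0.919 CPM per kb in TM and 9.41 ± 2.88 in subcutaneous TMPC. In TM its libraries overlapped those of Hsph1. In TMP the order Hspa8, Hspd1, Hsp90aa1, Hspe1, Hspb1 was separated at each step by libraries that did not overlap. In TM the genes Hspb1, Hspd1, Hsp90aa1 and Hspe1 overlapped with their neighbours in the order. Summed over the 10 genes, the level was 2849 to 3127 CPM in TM, 5062 to 6487 in TMP, 5865 to 8547 in subcutaneous TMPC and 3810 to 4680 in orthotopic TMPC.

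**Figure D1:**
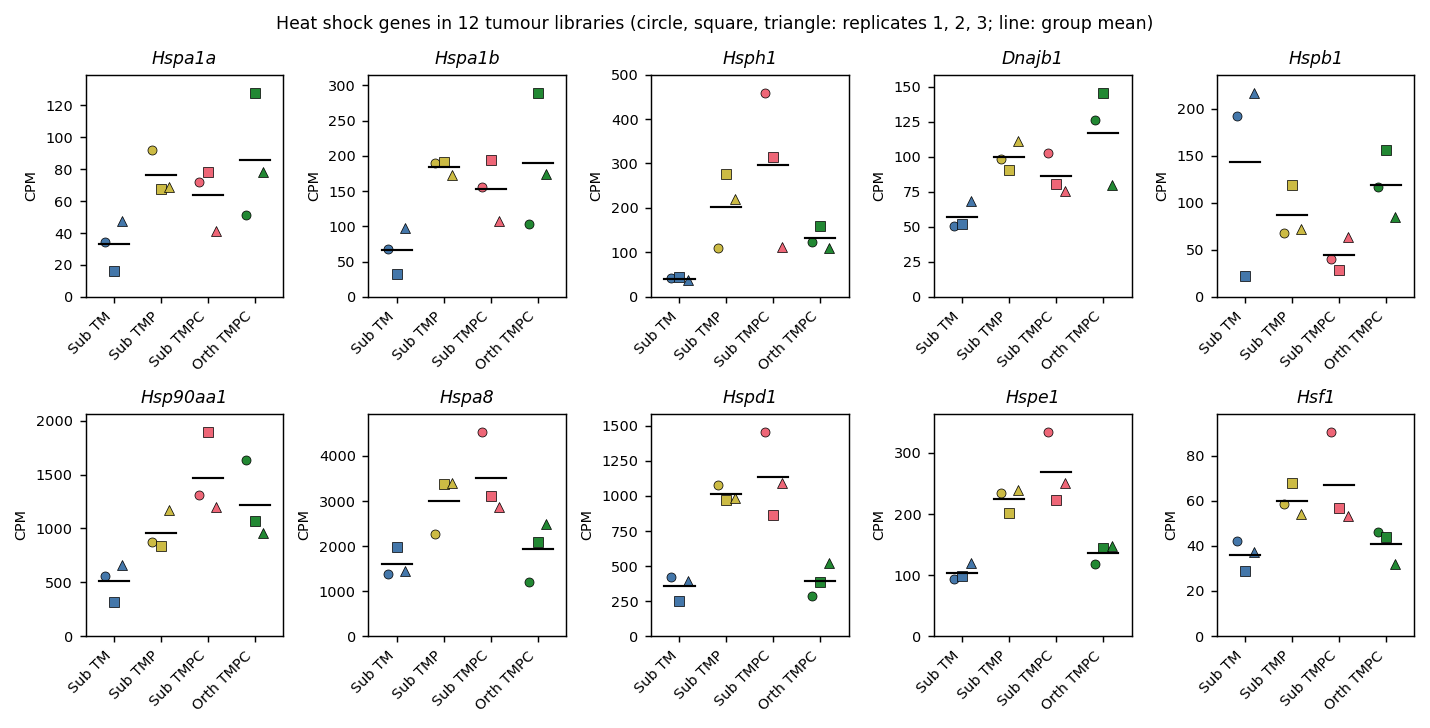
CPM of each heat shock gene (y axis, from 0) in the 12 libraries by group (x axis), with symbols for replicates 1 to 3 and a line at the group mean. Hspd1 and Hspe1 are low in subcutaneous TM and in orthotopic TMPC and high in the other groups, while Hspb1 is at 22.0 CPM in TM replicate 2 and at 192 and 217 in the other TM libraries.

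Subcutaneous TMP tumours held more of the HSP70, HSP110, J-domain and mitochondrial chaperonin messages than subcutaneous TM tumours. Of the 10 genes 6 rose (Hspa1a, Hspa1b, Hsph1, Dnajb1, Hspd1 and Hspe1) and none fell, with edgeR's quasi-likelihood test and a Benjamini-Hochberg adjusted p under 0.05. Over all 15277 genes tested 27.7% were called, 14.3% higher and 13.4% lower. Among the 10, Hsph1 changed most, 4.78-fold. Hsp90aa1, Hspa8 and Hsf1 were also above TM in every library but missed the threshold, with adjusted p from 0.0503 to 0.0520. DESeq2 called these 3 higher (adjusted p = 0.0259, 0.0220 and 0.0358). It called 9 of the 10 genes, and 5734 of 19341 genes in all. The libraries of the groups did not overlap for 9 of the 10 genes, all higher in TMP, against 50.7% of all genes in either direction. The median log2 fold change was 0.98 over the 10 genes and -0.07 over all genes tested. The number called depended on single libraries: it was 3 without TMP replicate 2, 2 without TMP replicate 3 and 7 without TM replicate 2. Those 7 were Hspb1, lower, and 6 genes higher, among which Hspa8 took the place of Hspa1a. Markers of immune cells moved the other way. Macrophage markers summed to 3120 to 6119 CPM in TM and 610 to 1276 in TMP, with 5 of 6 genes lower in edgeR's test, and T and NK cell markers to 145 to 1154 CPM in TM and 12.9 to 52.5 in TMP, with 2 of 2 tested genes lower. Their part in the rise of the heat shock genes was not tested.

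Between subcutaneous TMPC and TMP tumours no difference in the 10 genes passed, with edgeR or with DESeq2. Of all genes, 0% passed in edgeR's quasi-likelihood test, with 465 genes at an unadjusted p under 0.05, and DESeq2 called 16. Estimates ran from 0.499-fold for Hspb1 (SE 0.69 on the log2 scale) to 1.51-fold for Hsp90aa1 (SE 0.29). Those were also the 2 genes whose groups did not overlap, against 12.8% of all genes. The median was 0.13 over the 10 genes and 0.01 over all genes. These SE come from the fit that also holds the TM libraries. With only the 2 groups in the fit the SE of Hspb1 was 0.34 (edgeR adjusted p = 0.833). Without TM replicate 2 it was 0.32 (adjusted p = 0.638), and 1144 genes had an unadjusted p under 0.05, with none passing.

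Against TM, every gene but Hspa1a and Hspb1 was called higher in subcutaneous TMPC tumours. That made 8 of 10 higher and none lower by the same edgeR test, where 35.8% of all genes were called, 18% higher and 17.8% lower. Hsph1 again moved most, 6.86-fold. The Hspa1a estimate was also above TM, 1.88-fold, but missed the threshold (edgeR adjusted p = 0.0892). DESeq2 called the same 8 genes higher and Hspb1 lower (adjusted p = 0.0352), with 6819 of 19341 genes called in all. The groups did not overlap for 8 genes, against 47.7% of all genes. The median log2 fold change was 1.11, against -0.07 over all genes. The count was 5 without subcutaneous TMPC replicate 1. Here too immune markers were lower than in TM, at 759 to 1455 CPM for macrophages (5 of 6 genes lower) and 18.0 to 29.5 CPM for T and NK cells (2 of 2 tested genes lower), and their part was not tested. This comparison and the TMP one share the 3 TM libraries, so they are not independent of each other.

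Between the sites, orthotopic TMPC tumours had less Hspd1 and Hspe1 and more Hspb1 than subcutaneous TMPC tumours, and the other 7 genes did not pass. With edgeR 27.8% of 15123 genes were called, 14% higher and 13.8% lower. The groups did not overlap for 5 of the 10 genes, with Hspb1 higher and Hspa8, Hspd1, Hspe1 and Hsf1 lower, against 48.7% of all genes. The 3 of 10 called and these 5 of 10 were thus near the shares of all genes. The median log2 fold change was -0.44 over the 10 genes and 0.05 over all. All 3 calls were lost when orthotopic replicate 1 or orthotopic replicate 2 was left out, where the calls among all genes fell from 4204 to 1221 and 387. The subcutaneous TMPC libraries also enter the comparisons among subcutaneous tumours.

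**Figure D2:**
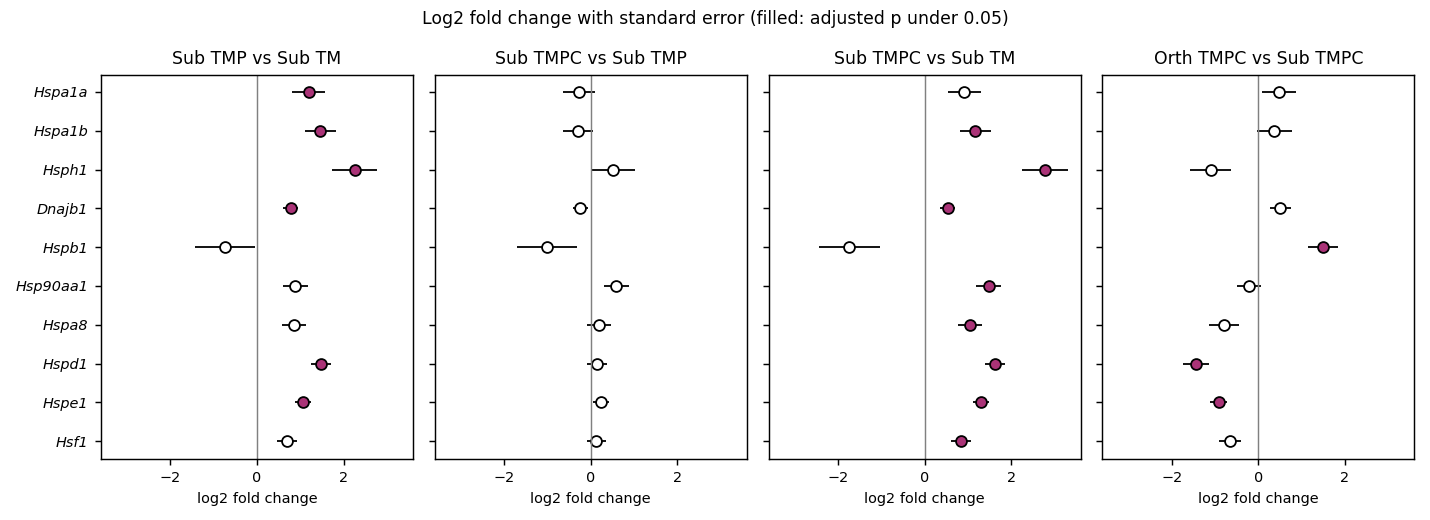
Log2 fold change of each gene (x axis) with its standard error (bar) in the 4 comparisons, filled where the adjusted p was under 0.05. Estimates against TM lie right of 0 for every gene but Hspb1, and in the site comparison Hspd1 (-1.45) and Hspe1 (-0.91) lie left and Hspb1 (1.49) right of 0.

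The mitochondrial chaperonin pair was called in both comparisons against TM and between the sites. Hspd1 (chr1:55077835-55088243, minus strand), the barrel subunit, stood at 421, 251 and 393 CPM in TM and at 1081, 973 and 987 in TMP, for replicates 1 to 3. It stood at 1455, 864 and 1091 CPM in subcutaneous TMPC and at 287, 384 and 518 in orthotopic TMPC. The TMP and subcutaneous TMPC libraries were thus all above the other 6, and TM overlapped orthotopic TMPC. The rise over TM was 2.80-fold in TMP (log2 1.48 ± 0.24, edgeR adjusted p = 0.00521) and 3.08-fold in TMPC (1.62 ± 0.24, adjusted p = 0.00241), called under all 14 alternatives in both. The level was 2.73-fold lower in orthotopic than in subcutaneous TMPC (log2 -1.45 ± 0.30, edgeR adjusted p = 0.0195), called under 7 of 11 alternatives.

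Hspe1 (chr1:55088132-55091307, plus strand), the lid subunit, stood at 93.9, 98.2 and 120.5 CPM in TM, at 235, 201 and 239.9 in TMP, at 334, 223 and 250.1 in subcutaneous TMPC and at 119, 144 and 148 in orthotopic TMPC. The order of the groups was that of Hspd1, with the same overlap of TM and orthotopic TMPC. Its rise over TM was 2.10-fold in TMP (log2 1.07 ± 0.18, edgeR adjusted p = 0.00689) and 2.47-fold in TMPC (1.30 ± 0.19, adjusted p = 0.00224), and its fall at the orthotopic site was 1.88-fold (-0.91 ± 0.20, adjusted p = 0.0208). The genes overlap by 112 bases of exon on opposite strands, and as the use of strand in counting is not known, reads there cannot be told apart. The Hspd1 to Hspe1 ratio per kb was 2.30 to 2.70 in TMP and 2.16 to 2.43 in subcutaneous TMPC, against 1.35 to 1.95 in orthotopic TMPC and 1.43 to 2.50 in TM.

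Markers of dividing cells (Mki67, Top2a, Ccna2, Ccnb1, Bub1 and Cdk1) moved with the pair. Their sum was 312 to 433 CPM in TM, 1352 to 1595 in TMP, 1718 to 1939 in subcutaneous TMPC and 526 to 846 in orthotopic TMPC. All 6 rose in TMP and in TMPC against TM and all 6 fell at the orthotopic site in edgeR's test. The shares over all genes were 14.3% and 18% higher, and 13.8% lower at the orthotopic site. The part of these markers in the chaperonin result was not tested.

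**Figure D3:**
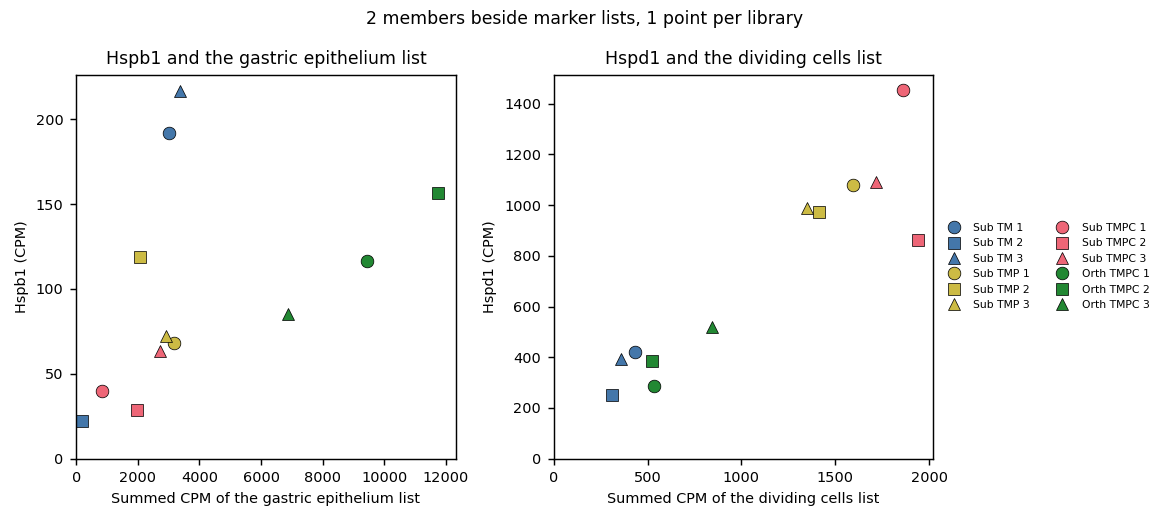
CPM of Hspb1 (left, y axis) against the summed CPM of 10 gastric epithelium markers, and of Hspd1 (right, y axis) against the summed CPM of 6 markers of dividing cells, with 1 point for each of the 12 libraries. The 6 libraries with Hspd1 at 864 CPM or more are those with dividing-cell sums of 1352 CPM or more, and TM replicate 2 is lowest on both axes of the left plot.

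The inducible HSP70 genes Hspa1a (chr17:34969190-34972156) and Hspa1b (chr17:34956436-34959238), both on the minus strand, encode nearly the same protein. Their longest open reading frames were identical at 1918 of 1929 aligned bases (99.4%), and 39.7% and 40.5% of all 150-base windows of the transcripts occurred in another transcript, so reads can be shared between them and each level is uncertain. Hspa1a also overlaps Gm20481, annotated on the other strand. Hspa1a stood at 34.6, 16.4 and 47.5 CPM in TM, at 92.2, 67.7 and 69.2 in TMP, at 72.2, 78.3 and 41.3 in subcutaneous TMPC and at 51.1, 128 and 78.1 in orthotopic TMPC. Hspa1b stood at 67.7, 32.8 and 97.2 CPM in TM, at 189.7, 191 and 172 in TMP, at 156, 195 and 108 in subcutaneous TMPC and at 104, 289 and 175 in orthotopic TMPC. The pair moved together library by library, with a count ratio of 0.355 to 0.512 in all 12.

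Summed over the pair, every TMP library (242 to 282 CPM) was above every TM library (49.2 to 145 CPM), and the subcutaneous TMPC range of 149 to 273 lay within the orthotopic range of 155 to 417 but for its lowest library. In TMP Hspa1b rose 2.75-fold over TM (log2 1.46 ± 0.36, edgeR adjusted p = 0.0216) and Hspa1a 2.29-fold (1.19 ± 0.38, adjusted p = 0.0477). The Hspa1a call was close to the threshold and was kept under 3 of 14 alternatives, that of Hspa1b under 9. In TMPC Hspa1b rose 2.25-fold over TM (1.17 ± 0.36, edgeR adjusted p = 0.0346, 6 of 14 alternatives), and Hspa1a gave 0.91 ± 0.38 (adjusted p = 0.0892). Between the sites the estimates were 0.48 ± 0.39 and 0.37 ± 0.40, with edgeR adjusted p of 0.382 and 0.521. Orthotopic replicate 2 was the highest of all 12 libraries for both genes, and without it the Hspa1b estimate became -0.0737.

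Hspa8 (chr9:40800984-40810087, plus strand), the constitutive HSP70 of the cytosol, stood at 1379, 1983 and 1452 CPM in TM, at 2259, 3375 and 3391 in TMP, at 4528, 3106 and 2868 in subcutaneous TMPC and at 1202, 2085 and 2495 in orthotopic TMPC. Every TMP and subcutaneous TMPC library was above every TM library, and orthotopic TMPC overlapped TM. It rose 2.07-fold in TMPC over TM (log2 1.05 ± 0.28, edgeR adjusted p = 0.0208), called under 13 of 14 alternatives. In TMP the estimate was 0.86 ± 0.28 (adjusted p = 0.0503), and at the orthotopic site -0.79 ± 0.34 (adjusted p = 0.120). The ratio of Hspa8 to the inducible pair was 5.00 to 9.86 in orthotopic TMPC and 8.01 to 40.3 in the subcutaneous libraries, highest in TM replicate 2. Of the Hspa8 transcript 55.4% of 150-base windows also occurred in transcripts of other annotated genes, and the gene hosts the small nucleolar RNAs Snord14c, Snord14d and Snord14e.

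Hsph1 (chr5:149614287-149636376, minus strand), which resets HSP70 by exchanging its nucleotide, stood at 41.3, 44.7 and 37.1 CPM in TM, a narrow range, at 109, 276 and 221 in TMP, at 459, 315 and 113 in subcutaneous TMPC and at 124, 160.4 and 111 in orthotopic TMPC. All 9 libraries outside TM were above all TM libraries, and the spread within TMP and subcutaneous TMPC was wide. The rise over TM was 4.78-fold in TMP (log2 2.26 ± 0.52, edgeR adjusted p = 0.0176, 12 of 14 alternatives) and 6.86-fold in TMPC (2.78 ± 0.53, adjusted p = 0.00638, all 14 alternatives). Between the sites the estimate was -1.10 ± 0.47 (adjusted p = 0.121). It passed without subcutaneous TMPC replicate 3, the low library, at -1.51 (adjusted p = 0.0346). None of its 150-base windows occurred in another transcript.

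Dnajb1 (chr8:83608193-83612653, plus strand), the J-domain protein that loads clients onto inducible HSP70, stood at 50.4, 52.2 and 68.2 CPM in TM, at 98.3, 90.6 and 112 in TMP, at 103, 80.2 and 75.7 in subcutaneous TMPC and at 127, 146 and 79.8 in orthotopic TMPC. TM was below all other libraries. It rose 1.71-fold in TMP (log2 0.78 ± 0.18, edgeR adjusted p = 0.0170) and 1.45-fold in TMPC (0.53 ± 0.18, adjusted p = 0.0450), the latter under 5 of 14 alternatives. At the orthotopic site the estimate was 0.50 ± 0.24 (adjusted p = 0.157). Without orthotopic replicate 3, which is the lowest of its group and the one with liver markers, it was 0.69 ± 0.18 (adjusted p = 0.0363).

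The immediate early genes Fos, Fosb, Jun, Junb, Egr1, Ier2 and Atf3 respond within minutes to stress and to handling of tissue. They summed to 690 to 923 CPM in TM, where Hspa1a, Hspa1b and Dnajb1 had their lowest group means. The sums were 537 to 716 in TMP, 488 to 526 in subcutaneous TMPC and 742 to 972 in orthotopic TMPC. Outside TM the means of those heat shock genes had the same order, highest in orthotopic TMPC and lowest in subcutaneous TMPC. Their libraries overlapped at each step of it, and with TM included the orders differed. Between the sites 4 of the 7 immediate early genes rose in edgeR's test, against 14% of all genes. The part of the immediate early genes in the levels of the heat shock genes was not tested.

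Hsp90aa1 (chr12:110690605-110702728, minus strand), the inducible cytosolic HSP90, stood at 556, 319 and 657 CPM in TM, at 872, 841 and 1168 in TMP, at 1309, 1894 and 1201 in subcutaneous TMPC and at 1633, 1067 and 958 in orthotopic TMPC. The TM libraries were lowest, and in this gene the subcutaneous TMPC libraries were all above the TMP libraries. The rise in TMPC over TM was 2.78-fold (log2 1.48 ± 0.29, edgeR adjusted p = 0.00737), called under all 14 alternatives, while TMP against TM gave 0.88 ± 0.29 (adjusted p = 0.0520). Between the sites the estimate was -0.22 ± 0.28 (adjusted p = 0.580). Its constitutive relative Hsp90ab1, by contrast, fell at the orthotopic site (log2 -0.97 ± 0.25, adjusted p = 0.0353), from 3722 ± 200 to 1825 ± 476 CPM (SD, n = 3). The ratio of Hsp90aa1 to Hsp90ab1 in CPM was 0.237 to 0.542 in the 9 subcutaneous libraries and 1.25, 0.555 and 0.427 in the orthotopic ones, so the sites overlapped in it.

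**Figure D4:**
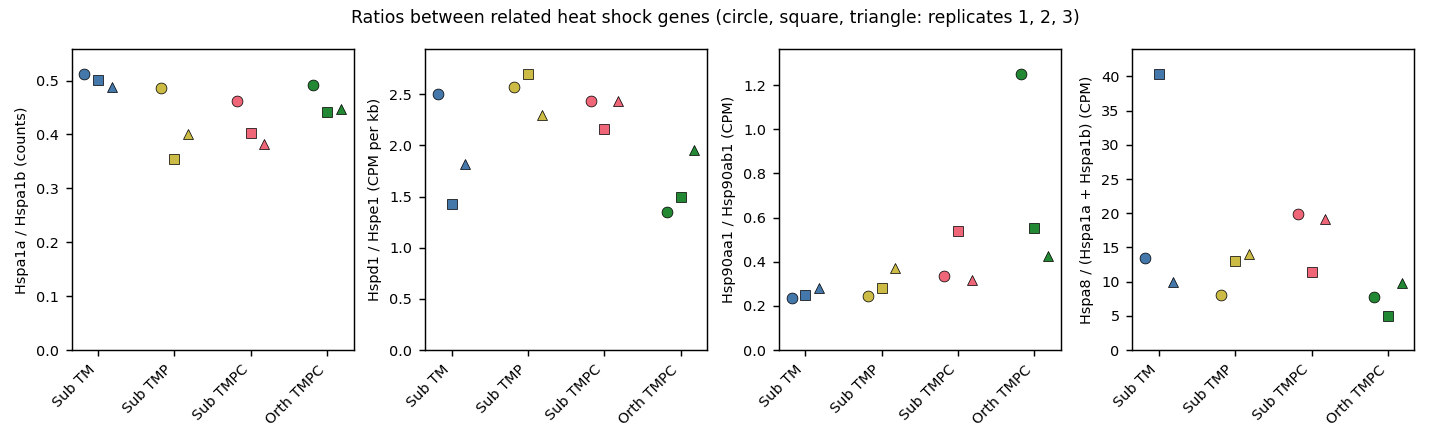
Ratios between related heat shock genes (y axes, from 0) in each library by group (x axis), with symbols for replicates 1 to 3. The Hspa1a to Hspa1b ratio stays between 0.355 and 0.512, the Hspd1 to Hspe1 ratio is at most 1.95 in orthotopic TMPC, and the Hsp90aa1 to Hsp90ab1 ratio reaches 1.25 in orthotopic replicate 1.

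Hspb1 (chr5:135887919-135889563, plus strand), a small heat shock protein that holds unfolded clients and binds actin filaments, had another order of groups. It stood at 192, 22.0 and 217 CPM in TM, at 68.2, 119 and 72.1 in TMP, at 39.9, 28.4 and 63.5 in subcutaneous TMPC and at 116, 156 and 85.1 in orthotopic TMPC. The orthotopic libraries were all above the subcutaneous TMPC ones, and TM held both the highest and the lowest library. At the orthotopic site it rose 2.82-fold (log2 1.49 ± 0.35, edgeR adjusted p = 0.0259). That call was kept under 5 of 11 alternatives, and was lost when all 12 libraries shared 1 estimate of the spread (adjusted p = 0.121). Against TM the estimates were -0.74 ± 0.69 in TMP (adjusted p = 0.444) and -1.74 ± 0.70 in TMPC (adjusted p = 0.0852). Without TM replicate 2 Hspb1 was lower in TMP by -1.23 ± 0.35 (adjusted p = 0.0300) and in TMPC by -2.22 ± 0.35 (adjusted p = 0.00251).

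Gastric epithelium markers stood beside Hspb1 as follows. Their sum over 10 genes was 3006, 180.5 and 3360 CPM in the TM libraries, 2059 to 3179 in TMP, 833 to 2724 in subcutaneous TMPC and 6879 to 11738 in orthotopic TMPC. The TM library low in Hspb1 was thus the one low in these markers, and 8 of the 10 markers rose at the orthotopic site, against 14% of all genes. In the subcutaneous libraries the sum came mostly from Epcam and keratins. Gkn1 stood at 1557, 1960 and 1299 CPM in orthotopic TMPC and at 0.175 or less in subcutaneous TMPC. Epcam overlapped between the sites, at 485, 594 and 630 CPM against 117, 621 and 672. The part of these markers in the Hspb1 result was not tested. Of the Hspb1 transcript 53.4% of 150-base windows also occurred in the pseudogene Hsp25-ps1.

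Hsf1 (chr15:76477422-76501913, plus strand), the regulator, had the lowest group means per kb of annotated exon. It stood at 41.9, 29.0 and 37.2 CPM in TM, at 58.3, 67.7 and 53.9 in TMP, at 90.4, 56.8 and 53.2 in subcutaneous TMPC and at 45.9, 44.1 and 32.0 in orthotopic TMPC. It rose 1.78-fold in TMPC over TM (log2 0.83 ± 0.23, edgeR adjusted p = 0.0246, 11 of 14 alternatives). In TMP the estimate was 0.70 ± 0.23 (adjusted p = 0.0518), and at the orthotopic site -0.66 ± 0.25 (adjusted p = 0.0875). The activity of HSF1 depends on trimer formation and phosphorylation, which transcript levels do not measure.

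Other genes of protein folding were read from 9 lists with 118 genes, of which 111 were tested among the subcutaneous tumours and 112 between the sites. In TMP against TM 40 of 111 rose (36.0%, against 14.3% of all genes) and 1 fell. The median log2 fold change was 0.41, against -0.07 over all genes. In TMPC against TMP none of the 111 passed in edgeR's test. In TMPC against TM 53 rose (47.7%, against 18% of all genes) and 1 fell. At the orthotopic site 3 rose and 38 fell (33.9%, against 13.8% of all genes), with a median of -0.41 against 0.05. The number that fell between the sites was 12 without orthotopic replicate 1, 1 without orthotopic replicate 2, and 19 and 18 without subcutaneous TMPC replicates 2 and 3. Against TM the number that rose lay between 28 and 47 in TMP and between 40 and 56 in TMPC as each library was left out.

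The cytosolic chaperonin TRiC and its partner prefoldin, which fold actin and tubulin, were the list with the largest share of calls. In TMP 12 of 14 tested genes rose, with a median of 1.05, among them Cct3 (1.36 ± 0.19), Cct7 (1.10 ± 0.15) and Cct2 (1.06 ± 0.20), all log2 with SE. In TMPC 13 of 14 rose over TM. The prefoldin subunit Pfdn5, named after its values were seen, fell instead, by 0.74 ± 0.15 in TMP and by 0.53 ± 0.15 in TMPC, the first call being lost without TMP replicate 1 and the second when any library but TM replicate 1 was left out. At the orthotopic site 11 of 14 fell, with Cct3 at -1.39 ± 0.17 (adjusted p = 0.00884 in edgeR's test) and Cct2 at -1.07 ± 0.17. Over all genes 14.3% rose in TMP, 18% rose in TMPC against TM and 13.8% fell at the orthotopic site. As single libraries were left out, the number that rose lay between 9 and 12 in TMP and between 11 and 13 in TMPC. The number that fell at the orthotopic site then lay between 1 and 12. As for Hspd1, dividing-cell markers moved in the same directions, and their part was not tested.

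Other HSP90 genes and HSP90 cochaperones were called in the same directions. In TMP 12 of 21 rose over TM and none fell, in TMPC 14, and at the orthotopic site 9 of 21 fell and none rose. Of all genes 14.3% were called higher in TMP, 18% higher in TMPC against TM and 13.8% lower at the orthotopic site. Stip1, the adaptor that passes clients from HSP70 to HSP90, went from 117 ± 4.49 CPM (SD, n = 3) in TM to 350.3 ± 15.2 in TMP (log2 1.54 ± 0.16, edgeR adjusted p = 0.00166) and 463 ± 87.4 in TMPC, and stood at 207 ± 10.2 in orthotopic TMPC. Nudc and Ptges3 rose by 1.28 ± 0.15 and 1.08 ± 0.13 in TMP. Ppid (-1.48 ± 0.23) and Fkbp4 (-1.18 ± 0.17), peptidyl-prolyl isomerases bound to HSP90, were among those that fell at the orthotopic site. The count was 7 to 12 in TMP, and 0 to 8 at the orthotopic site, as single libraries were left out.

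Among other HSP70 relatives 3 of 8 rose in TMP and in TMPC against TM. These were Hspa4l (2.18 ± 0.27 and 1.78 ± 0.27, log2 with SE), Hspa14 (1.06 ± 0.14 in TMP) and Hspa4 (0.95 ± 0.12 in TMP), the first and last being HSP110 relatives of Hsph1. Hspa14 and Hspa4 fell between the sites, by 1.06 ± 0.20 and 0.57 ± 0.13. Of 10 exchange factors and other HSP70 cochaperones 4 rose in TMP, 7 in TMPC and 5 fell at the orthotopic site. Bag2, an inhibitor of the ubiquitin ligase that marks HSP70 clients, went from 17.2 ± 11.8 CPM in TM to 100.3 ± 14.6 in TMP (log2 2.53 ± 0.56, edgeR adjusted p = 0.0155) and 115 ± 30.1 in TMPC, and stood at 32.8 ± 8.39 in orthotopic TMPC (-1.75 ± 0.28, adjusted p = 0.0119). St13 rose by 0.77 ± 0.15 in TMP, and Bag6 fell by 0.93 ± 0.23 at the orthotopic site. As single libraries were left out these counts lay between 2 and 4, between 4 and 7 and between 0 and 5, with 0 at the orthotopic site without orthotopic replicate 2. The shares over all genes were 14.3% higher in TMP, 18% higher in TMPC against TM and 13.8% lower at the orthotopic site.

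J-domain proteins load clients onto HSP70. Of 23 cytosolic ones tested 4 rose in TMP, 8 in TMPC against TM, and between the sites 6 fell and 1 rose, with medians of 0.24, 0.18 and -0.22. As single libraries were left out the number that rose lay between 2 and 6 in TMP, lowest without TM replicate 1 or any 1 TMP library, and between 4 and 9 in TMPC, lowest without TMPC replicate 3. At the orthotopic site none passed without orthotopic replicate 1 or 2. Of all genes 14.3% rose in TMP, 18% rose in TMPC against TM, and between the sites 13.8% fell and 14% rose. The 4 of 23 in TMP were thus near the share of all genes. Dnaja1, a partner of Hspa8, rose by 0.79 ± 0.22 in TMP and by 1.08 ± 0.22 in TMPC, and Dnaja2 by 0.60 ± 0.12 in TMP. Dnajc9, a histone chaperone, rose by 1.57 ± 0.32 in TMPC over TM and fell by 1.84 ± 0.33 at the orthotopic site, where the ribosome-bound Dnajc2 also fell by 1.00 ± 0.19. The 1 gene that rose there was Dnajb13, named after its values were seen, at 19.1, 17.8 and 4.21 CPM against 2.75, 2.46 and 0.722 (log2 2.84 ± 0.75, edgeR adjusted p = 0.0364). Its call was lost when any library but orthotopic replicate 3 was left out.

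Mitochondrial chaperones and proteases followed Hspd1 in part. In TMP 4 of 14 rose, in TMPC 6, and 5 fell at the orthotopic site. Over all genes 14.3% rose in TMP, 18% rose in TMPC against TM and 13.8% fell at the orthotopic site. Hspa9, the mitochondrial HSP70, went from 423 ± 62.5 CPM in TM to 823 ± 265 in TMP (log2 0.92 ± 0.24, edgeR adjusted p = 0.0264) and 912 ± 155 in TMPC, and stood at 388 ± 112 in orthotopic TMPC (-1.17 ± 0.27, adjusted p = 0.0250). The proteases Lonp1 and Clpp rose by 0.88 ± 0.16 and 0.97 ± 0.18 in TMP, and Trap1, the mitochondrial HSP90, fell by 0.72 ± 0.17 at the orthotopic site. Without TM replicate 2, 7 of the 14 rose in TMP, and without orthotopic replicate 1 or 2 none fell at the orthotopic site.

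Chaperones of the endoplasmic reticulum fold secreted and membrane proteins. In edgeR's test none of 13 was called in TMP or in TMPC against TM, and at the orthotopic site 2 rose and none fell. Those were Dnajc3 (1.02 ± 0.21) and Dnajb9 (0.72 ± 0.17), J-domain partners of the reticulum's HSP70 and targets of the unfolded protein response. Between the sites 14% of all genes were called higher. Neither Dnajc3 nor Dnajb9 was called higher without orthotopic replicate 1, orthotopic replicate 2 or subcutaneous TMPC replicate 2. Without TM replicate 2, 2 of the 13 rose in TMP and 3 in TMPC, and the median moved from -0.20 to 0.15 in TMP. As single libraries were left out, up to 1 of the 13 fell in TMP and up to 1 in TMPC against TM. The count of none against TM thus depends on single libraries.

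**Figure D5:**
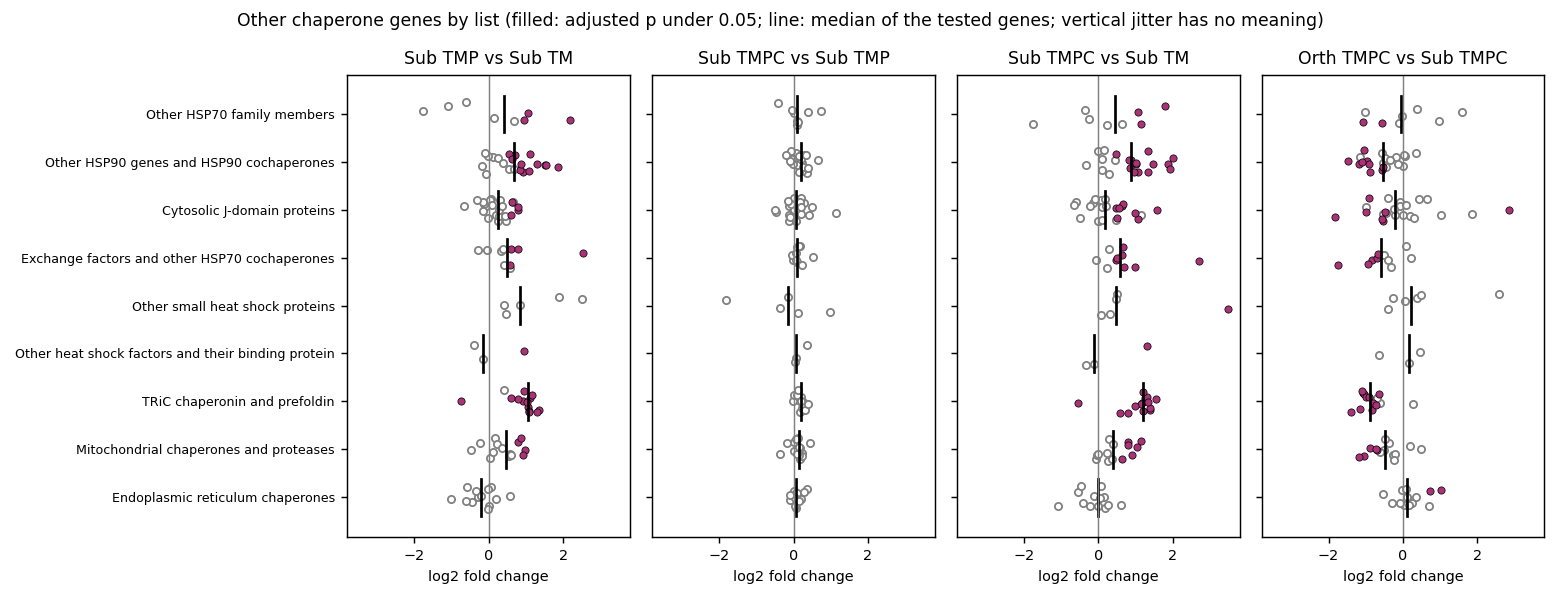
Log2 fold change (x axis) of each tested gene in 9 lists of other chaperone genes (y axis) in the 4 comparisons, filled where the adjusted p was under 0.05, with a line at the list's median. Points of the TRiC and prefoldin list lie mostly right of 0 against TM (median 1.05 and 1.21) and left of 0 between the sites (-0.87), and the endoplasmic reticulum list has medians of -0.20, 0.06, 0.00 and 0.12.

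Small heat shock proteins other than Hspb1 gave 1 call. Of 9 genes 5 were tested among the subcutaneous tumours, and Hspb7, a small heat shock protein of heart and skeletal muscle, was higher in TMPC than in TM, with 2.63, 8.07 and 18.6 CPM against 0.479, 1.47 and 0.504 (log2 3.50 ± 0.99, edgeR adjusted p = 0.0274). That call was lost without TM replicate 1 or 3, or without TMPC replicate 2 or 3. Skeletal muscle markers summed to 21.6 to 194 CPM in those TMPC libraries and to 1.81 to 3.20 in TM, and their part was not tested. Of 5 other heat shock factor genes and their binding protein 3 were tested, and Hsf2 rose by 0.95 ± 0.17 in TMP and by 1.31 ± 0.18 in TMPC against TM.

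The genes most like each of the 10 in pattern were listed by Pearson's r of log2(CPM + 1) over the 12 libraries, among 10666 genes, as a description, since the libraries share group differences. Hsph1 was most like the HSP90 cochaperones Ahsa2 (r = 0.991) and Chordc1 (0.954) and the J-domain gene Dnaja1 (0.962). For Ahsa2 the likeness held within groups, with r = 0.965 between deviations from the group means. For the other genes listed here this r lay between 0.720 (Ctxn1 with Hspa1a) and 0.962 (Rdh10 with Hspb1). Hspd1 was most like Gpn3 (0.991), Ndc1 (0.989) and Esf1 (0.987), and the genes most like Hspe1 included Nup88 (0.984) and Pms1 (0.983). Hspb1 was most like Rdh10 (0.959), Tmc4 (0.957) and Fam46b (0.945). The inducible pair shared Celf4 (0.918 with Hspa1a, 0.921 with Hspa1b) and Nr2f6 (0.909 and 0.924), followed by Ctxn1 (0.850) for Hspa1a and Tex15 (0.901) for Hspa1b. Dnajb1 was most like Hey1 (0.944), Phtf1 (0.935) and Ttll7 (0.909). Hsp90aa1 was most like Pcnxl4 (0.952), Terf1 (0.942) and Cnpy2 (0.936), and Hspa8 most like Polh (0.949), Armc1 (0.948) and Tmod2 (0.946). Hsf1 was most like Zmym1 (0.962), Repin1 (0.960) and Klhl42 (0.954). Among the 10 themselves the closest pairs were Hspa1a with Hspa1b (0.981, and 0.970 within groups) and Hspd1 with Hspe1 (0.946, and 0.687 within groups). Hspa1b and Hsph1 gave r = 0.700, and 0.252 within groups, so inducible HSP70 and HSP110 differed in which libraries of a group were high.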

How the data were processed

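The authors deposited whole-number counts per gene in 2 tables (9 subcutaneous libraries, and 6 TMPC libraries of both sites), beside a normalized signal. By its values, the deposited signal is the count divided by one size factor per library. Per the labels' protocols, polyA RNA of about 1 cm3 of tissue was read as pairs of 150 bp. Per the submitters' processing notes, STAR 2.6.0, mm10 and DESeq2 were used. Counter, annotation and strand setting: not given in the sources used here. Single-cell samples (2) were not analysed here. In the subcutaneous table, symbols are out of step with counts from entry 12291 on. Each entry was given the symbol at its position in the other table, whose counts of the 3 shared libraries were equal in all 24421 entries. The 10 heat shock genes lie before that entry. The deposited signal, times the size factor, matched counts within 0.01 reads for 24419 of 24419 entries after this step. No pair of replicates was a duplicate.

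Tests on counts used edgeR 4.0.16 (R 4.3.3) (glmQLFit and glmQLFTest, TMM factors, filterByExpr, Benjamini-Hochberg over all genes tested, threshold 0.05), with the 9 subcutaneous libraries in 1 fit and the 6 TMPC libraries in another, after tests on simulated data. A standard error is the log2 fold change divided by the square root of F. Alternatives were DESeq2 1.42.0, DESeq's size factors within edgeR, no filter, other sets of libraries in the fit, a replicate block and leaving out each library. The smallest two-sided p of an exact permutation test on 3 against 3 is 0.1, and no such test was run. Replicate numbers were not treated as pairs. The 10 genes and the lists were chosen with earlier results of these data known. The text names, by rule, the 10 genes, up to 3 called genes with the smallest adjusted p and the most abundant gene of each list, and the 3 genes most like each of the 10 with a mean of at least 10 CPM. The rule gave 89 pairs of gene and comparison besides the 10, of which 44 are named, and 5 pairs outside it are named as such. One gene that the rule on likeness names is not reported here.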

Additional observations from a re-analysis of the deposited data

How the results depend on the processing

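Directions of the 10 genes held under every alternative run, except for 4 uncalled estimates. In TMPC against TMP, as each library was left out, log2 ranged from -0.0121 to 0.33 for Hspa8, from -0.0547 to 0.33 for Hspd1 and from -0.13 to 0.28 for Hsf1, negative without subcutaneous TMPC replicate 1. Between the sites Hspa1b ranged from -0.0737, without orthotopic replicate 2, to 0.67. As each library was left out, the number of the 10 genes called lay between 2 and 7 for TMP against TM, between 0 and 0 for TMPC against TMP, between 5 and 8 for TMPC against TM and between 0 and 4 between the sites. All genes called then ranged from 1550 to 4885, from 0 to 0, from 3414 to 6390 and from 387 to 4789. With only the 2 groups compared in the fit, TMPC against TM gave 3536 genes and 5 of the 10. DESeq2 called 16 genes for TMPC against TMP and 6371 between the sites. With a replicate block the site comparison gave 1777 genes and 0 of the 10, and the other comparisons stayed within 1.5 times. Same-numbered libraries correlated between -0.25 and 0.29 in their deviations from group means, so the numbers do not pair them. For the moved counts the cause was not tested. At these depths the 10 genes were limited by the spread of 3 replicates and not by counting.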

Other observations

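Cryab, the small heat shock protein alpha-B-crystallin, was singled out after its values were seen. It stood at 38.6, 42.8 and 67.4 CPM in the TMP libraries, above all others. It stood at 11.3, 9.54 and 18.4 in TM, at 3.27, 19.0 and 20.4 in subcutaneous TMPC and at 8.93, 7.69 and 25.9 in orthotopic TMPC. By edgeR's quasi-likelihood test neither difference passed, with log2 1.89 ± 0.62 for TMP against TM (adjusted p = 0.0524) and -1.82 ± 0.62 for TMPC against TMP (adjusted p = 1.00). The first was called by DESeq2 (adjusted p = 0.0117), with only the 2 groups in the fit (0.0200) and without subcutaneous TMPC replicate 1 (0.00971), and over all alternatives its adjusted p ranged up to 0.147.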
